A study of Mus musculus with 18 samples.

Results

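Transcripts of iron and heme handling were followed in bone marrow-derived macrophages, which are grown from mouse marrow in culture, through 9 genes taken by symbol from the deposited expression table. These were Tfrc, Slc11a2 and Slc11a1 for uptake, Fth1 and Ftl1 for storage, Slc40a1 and Hamp for export and its control, and Alas1 and Hmox1 for making and degrading heme. All 9 were among the 11164 genes listed, and all 9 passed the filter on low values that left 9934 genes for testing. They had been chosen by symbol with their RPKM values in all 18 columns in view, so every contrast below counts as used in that choice. Their levels and differences are therefore given as a description, without a test, and the tests below concern other iron and heme genes.

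The macrophages came from BAFF KO, APRIL KO and WT mice of the C57BL/6J strain, with a label of day 16 of gestation on every sample. BAFF and APRIL are secreted ligands of the TNF family. Cells of each genotype were exposed to LPS at 10 ng/ml for 4 h or left unstimulated, which gave 6 groups: BAFF KO with LPS, APRIL KO with LPS, WT with LPS, BAFF KO unstimulated, APRIL KO unstimulated and WT unstimulated. Each group with LPS had 2 libraries and each unstimulated group had 1 library, every library being present as 2 columns of reads scaled by gene length and library size (RPKM, the authors' unit) that were averaged. The labels number these columns as separate samples of a group, but their names share a library number, so they were counted as 1 sample. Neither the knockout alleles nor how many mice stood behind a library is stated.

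Macrophages take up most of their iron from old red cells. Heme oxygenase, encoded by Hmox1, opens the heme ring and frees the iron, which is then stored in ferritin (heavy chain Fth1, light chain Ftl1) or leaves through ferroportin (Slc40a1), the known exporter of iron from cells. Hepcidin, the peptide encoded by Hamp, binds ferroportin and has it degraded. Iron bound to transferrin enters through the transferrin receptor (Tfrc), while Slc11a2 and Slc11a1 carry iron out of endosomes and phagosomes, and Alas1 is the first and rate-limiting enzyme of heme synthesis outside red cell precursors.

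Several of these mRNAs carry an iron-responsive element, a stem and loop that iron regulatory proteins bind when iron is scarce: in a 5′ UTR it holds back translation, and in a 3′ UTR it protects the mRNA. The elements are shown because they mark the members on which cell iron is known to act after transcription. UTRs of GENCODE M21 transcripts were searched, on the transcript strand, for an unpaired C, 5 bases, the loop CAGTG with any last base but G, and 5 bases pairing with the first 5, with 1 unpaired base allowed in the 3′ arm. The 5′ UTRs of Fth1 (chr19:9982733-9982759, plus strand), Ftl1 (chr7:45459780-45459806, minus) and Slc40a1 (chr1:45925466-45925492, minus) held 1 element each, in the build GRCm38 (mm10). The 3′ UTR of Slc11a2 held 1 (chr15:100395153-100395180, minus), in 1 annotated transcript. The 3′ UTR of Tfrc held 4 on the plus strand (chr16:32631220-32631246, chr16:32631599-32631625, chr16:32631664-32631690 and chr16:32631711-32631737). The sequences read 5′ to 3′ as DNA, with the 6-base loop in capitals:
Fth1: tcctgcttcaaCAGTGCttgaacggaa
Ftl1: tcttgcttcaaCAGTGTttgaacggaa
Slc40a1: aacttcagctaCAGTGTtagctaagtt
Slc11a2: gccatcagagcCAGTGTgtttctatggt
Tfrc, the first: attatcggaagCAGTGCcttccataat
Tfrc, the second: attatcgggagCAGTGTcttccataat
Tfrc, the third: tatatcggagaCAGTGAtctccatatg
Tfrc, the fourth: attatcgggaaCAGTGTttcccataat

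The search matched a 5′ UTR in 0.328% and a 3′ UTR in 1.54% of the 10660 protein-coding genes listed, and a match describes the letters only. It found none in the UTRs of Alas1, Hmox1, Hamp and Slc11a1.

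Reads recovered from the RPKM steps summed to between 5121833 and 6020780 per library. Tnfsf13, which encodes APRIL, had 0 reads in the 6 APRIL KO columns, against 253 reads in WT with LPS and 392 in unstimulated WT; the BAFF gene was not analysed here. All 10 macrophage markers were listed, with summed levels of 4868 to 7775 RPKM in every library. Lyz2 made the largest part of each sum, so the sums do not show each marker. Under LPS, 1 of the 10 was higher and 2 were lower in BAFF KO than in WT (adjusted p under 0.05, limma). In that comparison 8.34% of all genes were called. The 15 skeletal muscle markers listed, of 16, summed to 24.1 to 63.7 RPKM in the 6 knockout libraries and to 253 to 370 RPKM in the 3 WT libraries, so each comparison of a knockout with WT is also one of low with high muscle RNA. The 11 neutrophil markers listed, of 12 (Ly6g was not), summed to 2239 to 2614 RPKM in BAFF KO with LPS, 1557 to 1582 RPKM in APRIL KO with LPS and 1298 to 1651 RPKM in WT with LPS. Their unstimulated sums were 5501, 2587 and 2929 RPKM in BAFF KO, APRIL KO and WT. The 9 erythroid markers listed, of 15, summed to 585 to 1188 RPKM. The highest sum was that of library 20, while library 21, also APRIL KO with LPS, had 747 RPKM. Hbb-bs and Hbb-bt had equal reads in all 18 columns, so the sums may hold the same reads under both genes. The 6 stromal markers listed, of 7, summed to 433 RPKM in library 21 and 14.8 RPKM in library 20, the APRIL KO pair with LPS, to between 7.6 and 44.2 RPKM in the other knockout libraries, and to between 53.7 and 224 RPKM in WT. Neither Alas2, the red cell form of Alas1, nor any of 5 hepatocyte markers was listed. The part of other cell types in the results below was not tested.

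With LPS, ferroportin, heme oxygenase, the ferritin light chain and Slc11a1 were lower than in unstimulated cells of every genotype, while Slc11a2 and Hamp were higher. These directions held with median ratio scaling. With quantile normalization, which gives genes of equal rank equal values, Ftl1 came to 0.00 in BAFF KO and APRIL KO. Alas1 was the member whose direction differed: with LPS it was lower in BAFF KO cells and higher in APRIL KO and WT cells. Under LPS, BAFF KO cells had less Alas1, Hamp and Slc11a2 mRNA than WT cells and more Slc40a1, Tfrc, Hmox1, Ftl1 and Slc11a1. APRIL KO cells lay within 0.1 log2 units of WT for 6 members and differed most for Tfrc and Slc40a1.

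**Figure D1:**
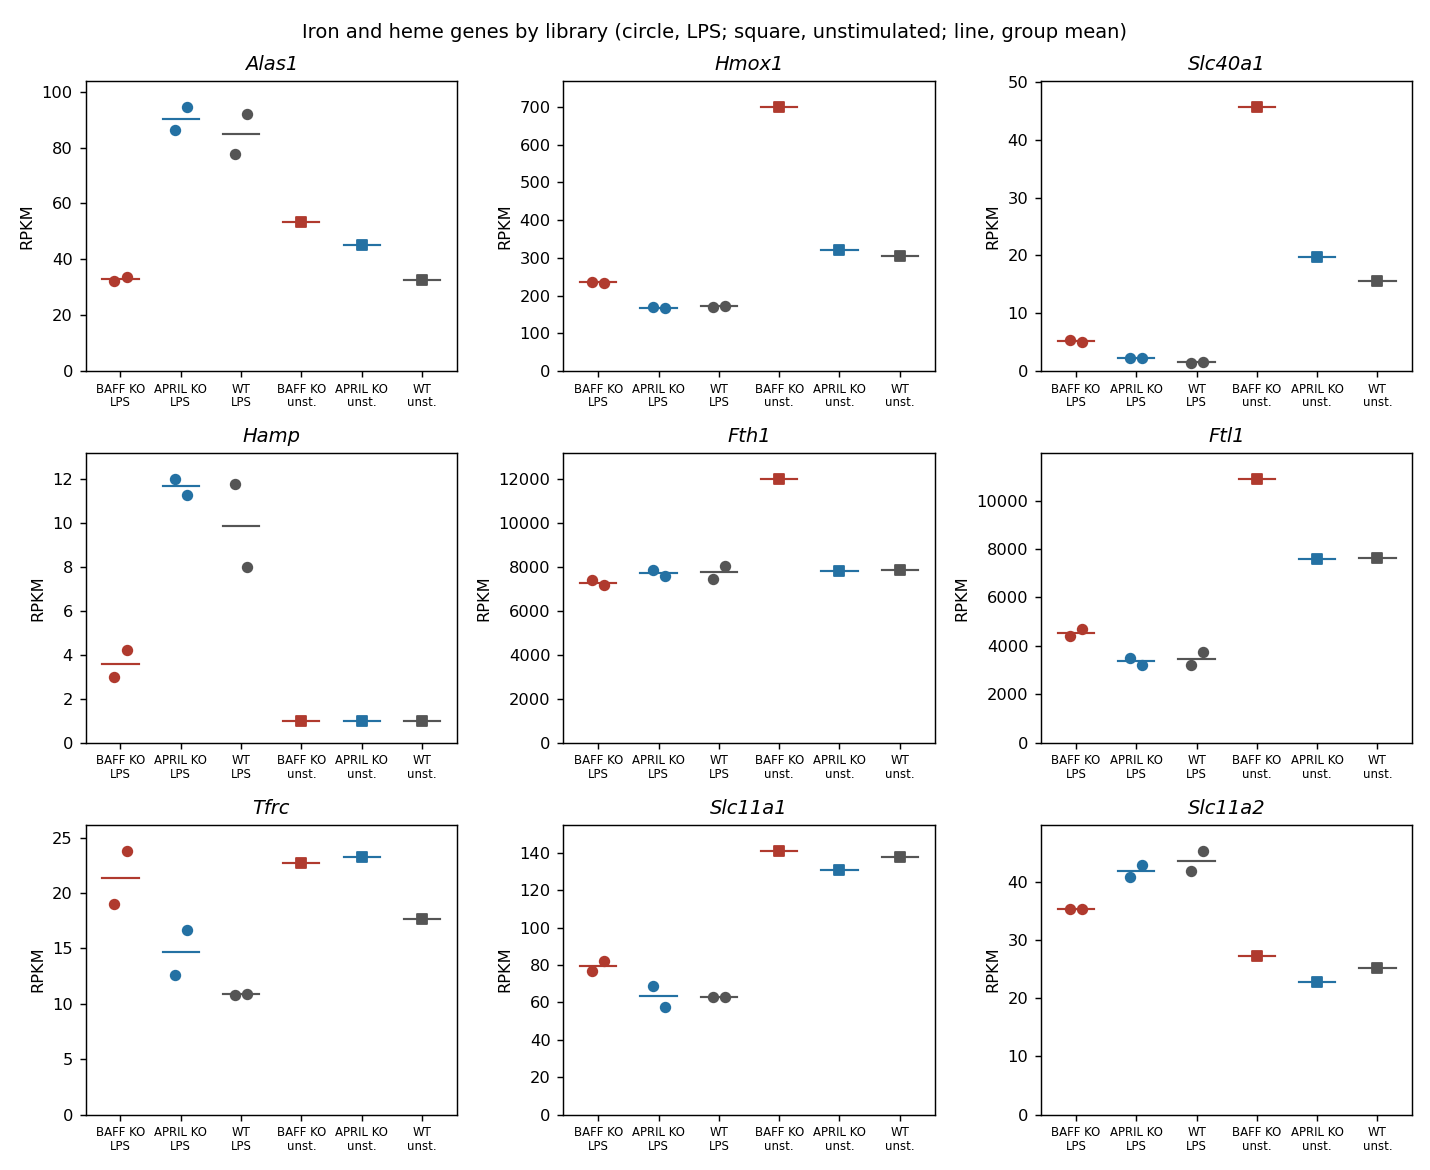
RPKM of the 9 iron and heme genes (vertical axis, from 0) in each library, with BAFF KO, APRIL KO and WT cells with LPS on the left and unstimulated cells on the right of every panel; circles and squares are libraries and lines are group means. Alas1 in BAFF KO with LPS (32.4 and 33.5 RPKM) lies below unstimulated BAFF KO (53.5 RPKM), whereas both other genotypes lie higher with LPS.

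A scale has to be fixed for the LPS comparison. On the log2(RPKM + 1) scale of the deposited values, the median difference between LPS and unstimulated cells, averaged over the 3 genotypes, was −0.44 over all 9934 genes and −0.46 over the 9 members, with Hamp above that median at any level. With libraries rescaled by their median ratio, the median of all genes was −0.02. Below, the difference on the deposited scale is followed by its distance from the median of all genes. Libraries with LPS did not overlap unstimulated ones for 6 of the 9 members (2 higher, 4 lower), against 63.2% of all genes (14.2% higher, 49.0% lower), and nothing is read from such shares, here or below, because these values were in view when the members were chosen.

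Tfrc (chr16:32608920-32632794, plus strand) brings transferrin-bound iron into the cell. Its level was 19 and 23.8 RPKM in BAFF KO with LPS, 12.6 and 16.7 RPKM in APRIL KO with LPS, and 10.8 and 10.9 RPKM in WT with LPS. Unstimulated cells had 22.7 RPKM in BAFF KO, 23.3 RPKM in APRIL KO and 17.7 RPKM in WT. The 3 genotypes with LPS did not overlap, and their order was BAFF KO, APRIL KO, WT; with LPS, only BAFF KO libraries lay on both sides of their own unstimulated library. The log2 difference with LPS was −0.09 ± 0.19 in BAFF KO, −0.65 ± 0.19 in APRIL KO and −0.65 ± 0.19 in WT (± SE of the fit), and −0.46 ± 0.11 averaged, −0.03 from the median of all genes. Under median ratio scaling the average was 0.03, with 0.36 in BAFF KO, −0.13 in APRIL KO and −0.14 in WT, so the average has no direction that holds on both scales.

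Slc11a2, also called DMT1 (chr15:100387898-100425072, minus strand), moves ferrous iron out of endosomes. It had 35.3 and 35.4 RPKM in BAFF KO with LPS, 40.9 and 42.9 RPKM in APRIL KO with LPS, and 41.8 and 45.3 RPKM in WT with LPS. The unstimulated levels were 27.2, 22.8 and 25.2 RPKM in BAFF KO, APRIL KO and WT. All libraries with LPS lay above all unstimulated ones; the average difference was 0.66 ± 0.063, 1.1 above the median of all genes. BAFF KO was the lowest genotype with LPS, and APRIL KO and WT overlapped. The gene overlaps Gm5475 on the other strand, and the sources do not settle whether strand was used in counting.

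Slc11a1, or NRAMP1 (chr1:74375195-74386062, plus strand), pumps metal ions out of phagosomes and is known for its part in resistance to intracellular bacteria. Its levels were 77.0 and 81.9 RPKM in BAFF KO with LPS, 57.7 and 68.9 RPKM in APRIL KO with LPS, and 62.8 and 63.1 RPKM in WT with LPS, against 141, 131 and 138 RPKM in unstimulated BAFF KO, APRIL KO and WT. The unstimulated columns of the genotypes overlapped for BAFF KO and WT and for APRIL KO and WT. With LPS the average difference was −0.99 ± 0.071, −0.56 from the median of all genes. The related transporters Slc11a1 and Slc11a2 thus stood on opposite sides of unstimulated cells in all 3 genotypes.

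The ferritin chains were the most abundant members. Fth1 (chr19:9980598-9985098, plus strand) carries the ferroxidase site; it had 7384 and 7172 RPKM in BAFF KO with LPS, 7850 and 7605 RPKM in APRIL KO with LPS, and 7438 and 8060 RPKM in WT with LPS. Its unstimulated levels were 11987 RPKM in BAFF KO, 7799 RPKM in APRIL KO and 7835 RPKM in WT. The unstimulated BAFF KO library was the high one, and the other 8 libraries lay between 7172 and 8060 RPKM. Fth1 was thus lower with LPS in BAFF KO (−0.72 ± 0.15) and level in APRIL KO (−0.01 ± 0.15) and WT (−0.02 ± 0.15) on the deposited scale. Under median ratio scaling the differences were −0.25, 0.53 and 0.53 in BAFF KO, APRIL KO and WT, so that the direction in the last pair depends on the scale.

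Ftl1 (chr7:45457944-45459884, minus strand) encodes the light chain, which helps the iron core form. It had 4403 and 4694 RPKM in BAFF KO with LPS, 3519 and 3200 RPKM in APRIL KO with LPS, and 3214 and 3729 RPKM in WT with LPS. Unstimulated BAFF KO, APRIL KO and WT had 10880, 7582 and 7647 RPKM. All libraries with LPS lay below all unstimulated ones, and the differences were alike in the genotypes at −1.26 ± 0.15 in BAFF KO, −1.18 ± 0.15 in APRIL KO and −1.14 ± 0.15 in WT. The average of −1.19 ± 0.089 lay −0.76 from the median of all genes.

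The ratio of the chains within a library was chosen after the values were seen. Its absolute value depends on the gene lengths behind the RPKM, 1487 bases for Fth1 and 1336 for Ftl1, where the exons annotated in M21 span 3469 and 1340 bases; how it differs between libraries does not. Ftl1 over Fth1 was 0.596 and 0.654 in BAFF KO with LPS, 0.448 and 0.421 in APRIL KO with LPS, and 0.432 and 0.463 in WT with LPS. In unstimulated cells it was 0.908, 0.972 and 0.976 in BAFF KO, APRIL KO and WT. The ratio was thus lower in every library with LPS than in any unstimulated one, and among those with LPS it was highest in BAFF KO. Ferritin mRNA took 1.53% to 1.7% of reads in libraries with LPS, against 3.24%, 2.18% and 2.19% in unstimulated BAFF KO, APRIL KO and WT. Ferritin-like copies elsewhere in the genome, such as Ftl1-ps1, were not listed, and reads shared with them cannot be told apart.

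Slc40a1 (chr1:45908068-45926523, minus strand), which encodes ferroportin, had the largest difference with LPS among the members with reads in every library. Its level was 5.3 and 5.01 RPKM in BAFF KO with LPS, 2.18 RPKM in both APRIL KO libraries with LPS, and 1.4 and 1.58 RPKM in WT with LPS. Unstimulated cells had 45.6 RPKM in BAFF KO, 19.8 RPKM in APRIL KO and 15.5 RPKM in WT. The groups kept the same order with and without LPS: BAFF KO above APRIL KO above WT. Libraries with LPS did not overlap between genotypes. Unstimulated genotypes had 1 library each, so overlap could not be judged there. Counted without the read that the RPKM values add to each count, LPS libraries held 0.111, 0.106 and 0.0877 of the unstimulated RPM (reads scaled to the library total) in BAFF KO, APRIL KO and WT. The WT libraries with LPS had only 23 and 26 reads, or 4.31 RPM (95% interval 2.73 to 6.47) and 5.08 (3.32 to 7.44). Both APRIL KO libraries with LPS had 42 reads, or 7.37 RPM (5.31 to 9.97) and 7.39 (5.33 to 9.99). Their intervals overlap those of WT, so the order of APRIL KO and WT with LPS rests on few reads. The fitted average of −2.79 ± 0.094, −2.35 from the median of all genes, understates the change of so low a gene.

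Hamp (chr7:30942368-30944032, minus strand) encodes hepcidin, and was detected with LPS only. BAFF KO with LPS had 3 and 7 reads, APRIL KO with LPS had 23 and 22 reads, WT with LPS had 21 and 13 reads, and the 3 unstimulated libraries had 0 reads. In RPM this was 0.569 (95% interval 0.117 to 1.66) and 1.16 (0.467 to 2.4) in BAFF KO with LPS. APRIL KO with LPS had 4.04 (2.56 to 6.06) and 3.87 (2.43 to 5.86) RPM, and WT with LPS had 3.94 (2.44 to 6.02) and 2.54 (1.35 to 4.34). For an unstimulated library, 3 reads were taken as the limit that 0 reads allow. Hamp RPM over both libraries with LPS was 1.7-fold that limit in BAFF KO, 7.51-fold in APRIL KO and 5.96-fold in WT. These ratios leave out the counting error of the 10, 45 and 34 reads with LPS, so they are not strict lower bounds. The deposited 0.975 RPKM of unstimulated cells stands for 0 reads. BAFF KO was the low genotype with LPS in both libraries, at depths where the intervals of both BAFF KO libraries overlap that of library 15 (WT). The mouse has a second hepcidin gene, Hamp2, which was not listed, so reads shared between the copies remain uncertain, as do reads of Gm44662, which overlaps Hamp on the other strand.

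Alas1 (chr9:106233455-106248654, minus strand) makes the first precursor of heme. It had 32.4 and 33.5 RPKM in BAFF KO with LPS, 86.3 and 94.4 RPKM in APRIL KO with LPS, and 77.8 and 92.1 RPKM in WT with LPS. Unstimulated BAFF KO had 53.5 RPKM, unstimulated APRIL KO 45.1 RPKM and unstimulated WT 32.7 RPKM. The BAFF KO level was therefore the highest of the 3 genotypes without LPS and the lowest with LPS, where it did not overlap the others; APRIL KO and WT overlapped. The difference with LPS was −0.68 ± 0.13 in BAFF KO, 0.99 ± 0.13 in APRIL KO and 1.35 ± 0.13 in WT. BAFF KO remained below 0 under median ratio scaling, at −0.22, with 1.52 in APRIL KO and 1.88 in WT. Libraries below the unstimulated one in BAFF KO and above it in both other genotypes were found for 1.12% of all genes. The response in BAFF KO minus that in WT was −2.03 ± 0.18. Each of these differences rests on 1 unstimulated library, and the gene overlaps an antisense transcript, 4930500F10Rik.

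Hmox1 (chr8:75093621-75100589, plus strand), the inducible heme oxygenase, had 235 and 234 RPKM in BAFF KO with LPS, 169 and 166 RPKM in APRIL KO with LPS, and 171 and 173 RPKM in WT with LPS. Unstimulated BAFF KO stood apart at 699 RPKM, with 322 RPKM in APRIL KO and 305 RPKM in WT. All libraries with LPS lay below all unstimulated ones. The difference with LPS was −1.57 ± 0.089 in BAFF KO, −0.94 ± 0.089 in APRIL KO and −0.82 ± 0.089 in WT, and its average of −1.11 ± 0.052 lay −0.67 from the median of all genes. BAFF KO cells thus had the most Hmox1 mRNA in both states.

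**Figure D2:**
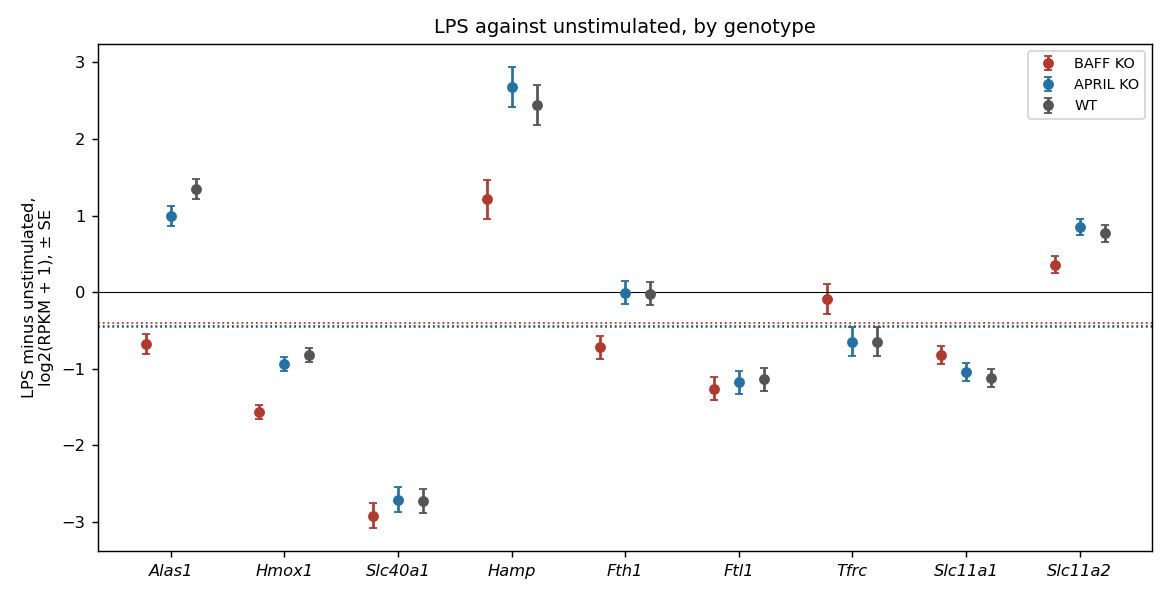
Difference between LPS and unstimulated cells, log2(RPKM + 1) scale (vertical axis), for the 9 genes in BAFF KO, APRIL KO and WT cells. Points are estimates and dotted lines the median of all genes in that genotype. Bars are the SE of the fit over 9 libraries, with a spread measured in LPS libraries only. Alas1 lies at −0.68 in BAFF KO against 0.99 in APRIL KO and 1.35 in WT, while Slc40a1 lies between −2.92 and −2.71 in all 3.

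Unstimulated genotypes had 1 library each, so their values have no replicate check. BAFF KO over WT was 2.94-fold for Slc40a1, 2.29-fold for Hmox1, 1.64-fold for Alas1, 1.53-fold for Fth1, 1.42-fold for Ftl1 and 1.28-fold for Tfrc, each with both BAFF KO columns above both WT columns. Slc11a1 (1.02-fold) and Slc11a2 (1.08-fold) overlapped, and Hamp had 0 reads in both. Of all genes, 17.1% differed at least 1.5-fold in either direction with columns apart, a rule that Ftl1 and Tfrc did not meet. The share of all genes with columns apart at any ratio is not given, so nothing is read from columns that lie apart. APRIL KO over WT reached at most 1.38-fold, for Alas1, with 1.32-fold for Tfrc and 1.27-fold for Slc40a1; the share of all genes past 1.5-fold was 10.4%. The ratio for Hmox1 was 1.06 and those for Fth1 and Ftl1 were 0.995 and 0.992. In the same libraries the neutrophil markers summed to 5501 RPKM in BAFF KO, 2587 RPKM in APRIL KO and 2929 RPKM in WT.

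Under LPS the 9 genes of BAFF KO cells all lay outside the range of the WT libraries, 5 higher and 4 lower, against 55.5% of all genes (29.9% higher, 25.5% lower). Slc40a1 was higher by 1.31 ± 0.13 (log2), with 5.16 ± 0.202 RPKM in BAFF KO and 1.49 ± 0.126 RPKM in WT (SD, n = 2 each). Tfrc was higher by 0.91 ± 0.16, with 21.4 ± 3.38 RPKM in BAFF KO and 10.9 ± 0.0651 RPKM in WT. Hmox1 (0.44 ± 0.073), Ftl1 (0.39 ± 0.13) and Slc11a1 (0.33 ± 0.1) were higher by less. On the other side, Alas1 differed by −1.34 ± 0.1, with 32.9 ± 0.771 RPKM in BAFF KO and 85.0 ± 10.1 RPKM in WT. Hamp differed by −1.23 ± 0.21 on the fitted scale, from few reads, and Slc11a2 by −0.29 ± 0.089. Fth1 differed by −0.09 ± 0.12, less than its SE. The median over all genes was 0.02.

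Against APRIL KO cells under LPS, the same 9 genes of BAFF KO cells lay outside the range, again 5 higher and 4 lower, where 49.6% of all genes did (26.7% higher, 22.9% lower). The differences were −1.43 ± 0.1 for Alas1, −1.47 ± 0.21 for Hamp, 0.95 ± 0.13 for Slc40a1, 0.52 ± 0.16 for Tfrc and 0.48 ± 0.073 for Hmox1. This comparison shares its BAFF KO libraries with the one above. In it the muscle markers were low on both sides, at 40.4 to 53.0 RPKM in BAFF KO and 27.5 to 63.7 RPKM in APRIL KO, while the neutrophil markers were higher in BAFF KO.

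APRIL KO cells under LPS were nearer to WT. Libraries did not overlap for 3 of the 9 genes, against 48.0% of all genes (25.4% higher, 22.6% lower). Slc40a1 (0.36 ± 0.13) and Tfrc (0.38 ± 0.16) were higher and Hmox1 (−0.04 ± 0.073) was lower. Slc40a1 averaged 2.18 ± 0.00102 RPKM in APRIL KO and 1.49 ± 0.126 RPKM in WT, and Tfrc 14.7 ± 2.95 RPKM in APRIL KO and 10.9 ± 0.0651 RPKM in WT (SD, n = 2 each). For Slc40a1 both APRIL KO libraries had 42 reads, so that SD is smaller than the counting error, and the counting intervals overlap those of WT. Alas1 (0.09 ± 0.1), Hamp (0.24 ± 0.21), Ftl1 (−0.04 ± 0.13), Slc11a2 (−0.05 ± 0.089), Slc11a1 (0.00 ± 0.1) and Fth1 (0.00 ± 0.12) overlapped WT.

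**Figure D3:**
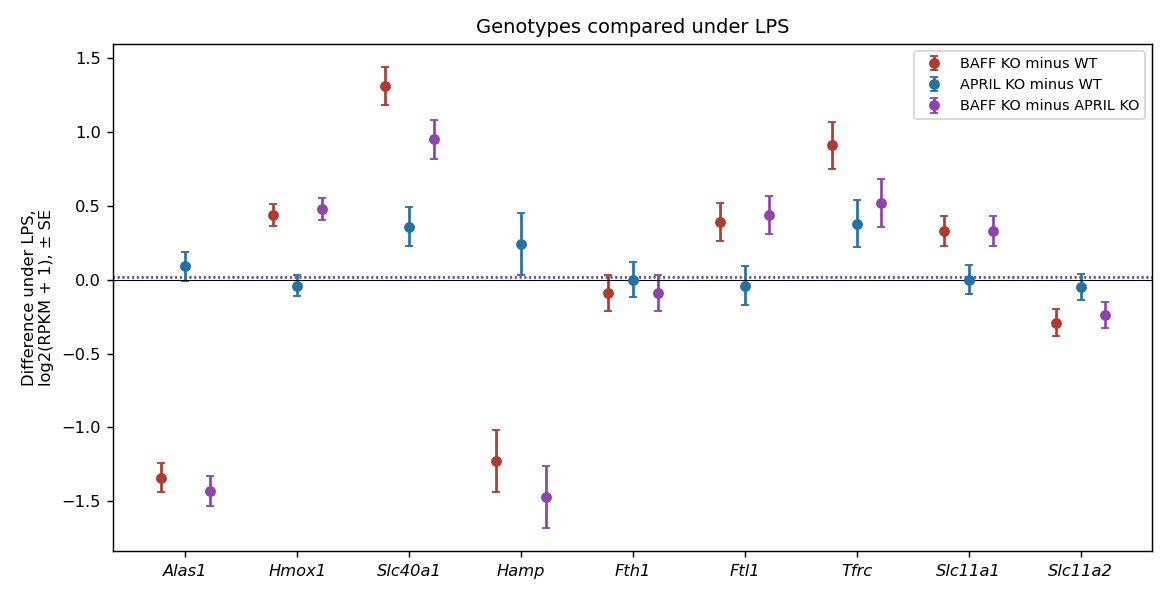
Differences between genotypes under LPS on the log2(RPKM + 1) scale (vertical axis) for the 9 genes, with BAFF KO minus WT, APRIL KO minus WT and BAFF KO minus APRIL KO side by side; points are estimates, bars the SE of the fit and dotted lines the median of all genes. Slc40a1 (1.31) and Tfrc (0.91) are highest and Alas1 (−1.34) and Hamp (−1.23) lowest in BAFF KO minus WT, while APRIL KO minus WT stays between −0.05 and 0.38.

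The size of the LPS difference in BAFF KO cells minus that in WT cells was −2.03 ± 0.18 for Alas1, −1.23 ± 0.37 for Hamp, −0.75 ± 0.13 for Hmox1, −0.7 ± 0.21 for Fth1, −0.4 ± 0.15 for Slc11a2, 0.3 ± 0.17 for Slc11a1 and 0.56 ± 0.28 for Tfrc, where the median of all genes was 0.08. For Slc40a1 it was −0.19 ± 0.23 and for Ftl1 −0.12 ± 0.22, both less than their SE. The value for Slc40a1 turned to 0.18 with a pseudocount of 0.1. In APRIL KO minus WT the values ran from −0.36 ± 0.18 for Alas1 to 0.24 ± 0.37 for Hamp.

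The other genes of the pathway were read from a list of 104 iron and heme genes without the 9, of which 84 were listed and 82 tested with limma (Benjamini-Hochberg adjustment over all 9934 genes, threshold 0.05). Averaged over genotypes, 70 of the 82 (85.4%) changed with LPS, 13 up and 57 down, against 80.2% of all genes (18.1% up, 62.1% down). The median over the 82 genes was −0.63. The 70 calls take unstimulated cells to vary as cells with LPS do, since only LPS groups had more than 1 library. The split depends on the scale: it was 26 up and 34 down with median ratio scaling (31.0% and 30.1% of all genes), and 22 up and 43 down with quantile normalization (24.3% and 41.8% of all genes).

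Heme synthesis beyond Alas1 was lower with LPS: 12 of 13 genes tested fell and none rose, against 62.1% of all genes falling. Under median ratio scaling 9 fell and none rose, where 30.1% of all genes fell, and under quantile normalization 9 fell and 1 rose, where 41.8% fell. Iron-sulfur cluster assembly had 20 of 25 genes lower and 2 higher (13 lower and 5 higher under median ratio scaling), against the same shares. Its largest fall was that of Hscb, a co-chaperone of cluster transfer, with 7.81 RPKM with LPS and 34.4 RPKM without (−2.07 ± 0.32, adjusted p = 0.00054, limma).

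Among genes of heme breakdown, uptake and transport, 7 of 11 fell and 1 rose, a share near the 62.1% of all genes that fell. Lrp1, the receptor for heme bound to hemopexin, averaged 25.7 RPKM with LPS and 117 RPKM without (−2.13 ± 0.12, adjusted p = 3e-06, limma). Flvcr1, known as a heme exporter, averaged 4.04 RPKM with LPS and 20.5 RPKM without (−2.11 ± 0.15, adjusted p = 8.5e-06, limma). The riser was Hp, haptoglobin, which binds free hemoglobin, at 78.4 RPKM with LPS and 37.3 RPKM without (1.09 ± 0.14, adjusted p = 0.00021, limma). Under median ratio scaling 5 genes of this group rose and 5 fell, against 31.0% and 30.1% of all genes.

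Cp, ceruloplasmin, the copper oxidase that loads exported iron onto transferrin, had the largest rise of the list. It had 20.6 and 21.1 RPKM in BAFF KO with LPS, 39.1 and 46.3 RPKM in APRIL KO with LPS, and 29.5 and 33.9 RPKM in WT with LPS, against 1.34, 2.11 and 1.22 RPKM in unstimulated BAFF KO, APRIL KO and WT. The difference was 3.64 ± 0.093 (adjusted p = 2.7e-08, limma). The ferroxidase partner of ferroportin thus rose in the cells in which Slc40a1 was lower.

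Iron uptake and intracellular transport had 3 of 8 genes higher and 4 lower, against 18.1% and 62.1% of all genes. Lcn2, lipocalin 2, which captures the siderophores of bacteria, averaged 235 RPKM with LPS and 119 RPKM without (1.02 ± 0.076, adjusted p = 1.1e-05, limma). Ltf, lactoferrin, an iron-binding protein of neutrophil granules, averaged 66.5 RPKM with LPS and 215 RPKM without (−1.68 ± 0.084, adjusted p = 1.3e-06, limma). Of the neutrophil markers, 9 of 10 tested fell as well, where 62.1% of all genes fell, and their part was not tested. All 4 genes of storage and iron chaperones fell, where 62.1% of all genes did. Under median ratio scaling 1 rose and 1 fell, against 31.0% and 30.1% of all genes.

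Of 13 sensing factors, 5 rose and 6 fell, against 18.1% and 62.1% of all genes. Under median ratio scaling 7 rose and 1 fell, against 31.0% and 30.1% of all genes. Mafk, a small Maf partner of BACH1 and NRF2 on heme-regulated genes, averaged 8.54 RPKM with LPS and 2.89 RPKM without (1.28 ± 0.12, adjusted p = 4.3e-05, limma). Spic, the transcription factor of iron-recycling macrophages, had 27.0 and 21.1 RPKM in BAFF KO with LPS, 12.7 and 15.2 RPKM in APRIL KO with LPS, and 12.1 and 14.8 RPKM in WT with LPS. Unstimulated BAFF KO, APRIL KO and WT had 15.6, 4.04 and 5.91 RPKM, so that the states overlapped across genotypes while each genotype was higher with LPS (1.07 ± 0.12, adjusted p = 7.8e-05, limma).

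**Figure D4:**
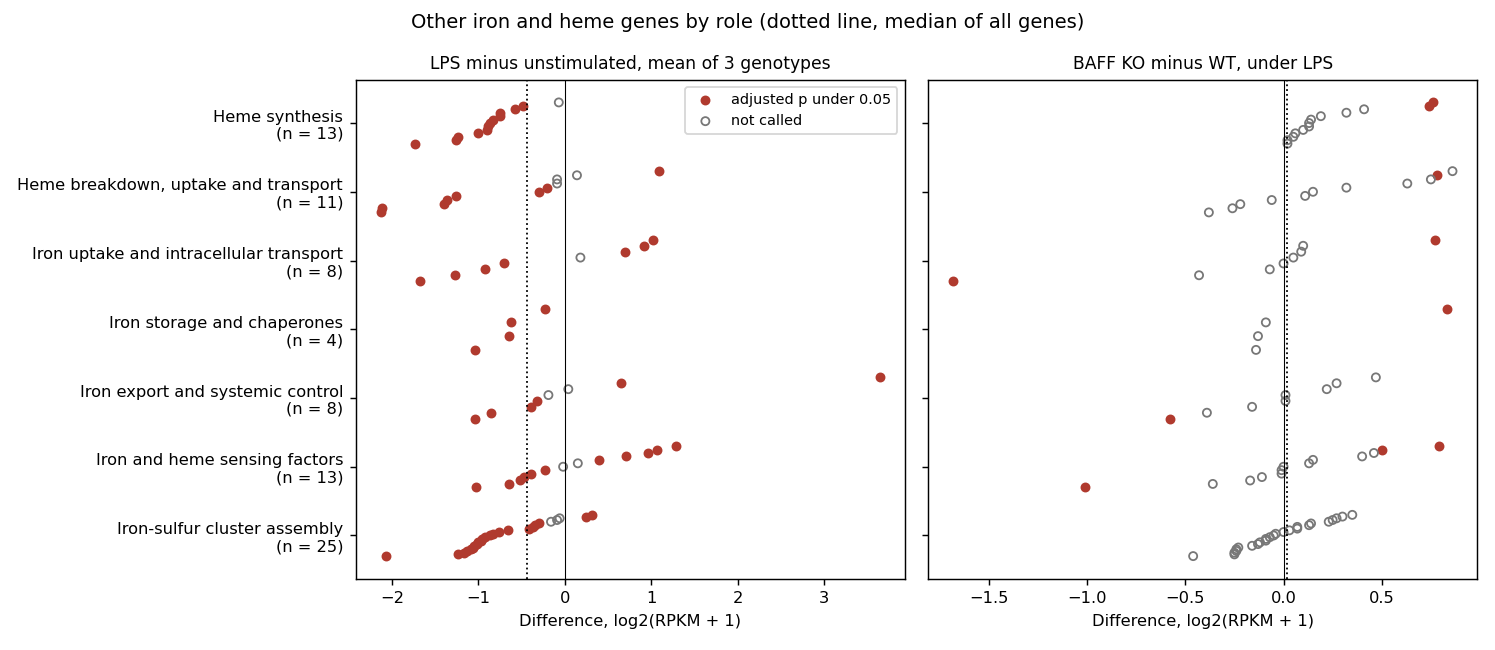
Other iron and heme genes by role (rows), with the difference on the log2(RPKM + 1) scale (horizontal axis) for LPS minus unstimulated on the left and BAFF KO minus WT under LPS on the right; each point is a gene, filled where the adjusted p is under 0.05, and the dotted line is the median of all genes. On the left 57 of 82 genes are lower and 13 higher, with Cp at 3.64; on the right 7 are higher and 3 lower, with Slc39a14 at −1.68.

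Between BAFF KO and WT under LPS, 10 of the 82 genes (12.2%) were called, 7 higher and 3 lower, against 8.34% of all genes (3.99% higher, 4.35% lower). Slc39a14, or ZIP14, a zinc importer that also carries iron not bound to transferrin, had 15 and 36 reads in BAFF KO, against 210 and 145 reads in WT. In RPKM this was 0.427 and 0.697 in BAFF KO, and 4.66 and 3.41 in WT (−1.68 ± 0.21, adjusted p = 0.0043, limma). APRIL KO with LPS had 3.73 and 5.3 RPKM, and unstimulated BAFF KO, APRIL KO and WT had 0.371, 1.57 and 0.806 RPKM. The BAFF KO libraries with LPS thus lay within the range of the unstimulated ones of all genotypes. In RPKM both lay above unstimulated BAFF KO, which had 17 reads, so this rests on few reads.

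Maff, another small Maf factor, was also lower, at 1.72 and 2.69 RPKM in BAFF KO with LPS and 5.57 and 5.21 RPKM in WT with LPS (−1.01 ± 0.18, adjusted p = 0.017, limma). It had few reads, 16 and 29 in BAFF KO and 58 and 59 in WT. APRIL KO with LPS, at 3.27 and 3.17 RPKM, also lay below WT, without a call. Cp was lower by less (−0.58 ± 0.13, adjusted p = 0.039, limma), with values above.

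Among the genes higher in BAFF KO, Ncoa4, the receptor that delivers ferritin to lysosomes, had 25.5 and 26.5 RPKM, against 13.8 and 14.6 RPKM in WT with LPS (0.83 ± 0.12, adjusted p = 0.0079, limma). Abcc5, a transporter known in the worm Caenorhabditis elegans for heme export, had 27.5 and 29.4 RPKM in BAFF KO and 16.1 and 16.2 RPKM in WT (0.78 ± 0.095, adjusted p = 0.0041, limma). Fech, which inserts iron into the heme ring, had 6.73 and 6.87 RPKM in BAFF KO and 3.77 and 3.43 RPKM in WT (0.76 ± 0.13, adjusted p = 0.016, limma). Fech and Alas1, the last and the first enzyme of heme synthesis, thus stood on opposite sides of WT.

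Spic (0.79 ± 0.16, adjusted p = 0.028, limma) and Ltf (0.77 ± 0.12, adjusted p = 0.0096, limma) completed the 5 largest rises. Ltf had 98.8 and 94.8 RPKM in BAFF KO and 52.9 and 59.7 RPKM in WT. In the same comparison 6 of the 10 neutrophil markers tested were higher, where 3.99% of all genes were. Leaving out 1 LPS library left 2 genes called without library 14 (WT) or 17 (BAFF KO), 3 without 18 (BAFF KO), 5 without 15 (WT) and 7 without either APRIL KO library. Slc39a14 and Abcc5 were called in all 6 cases, with adjusted p of at most 0.047 and 0.043 (limma); the other 6 genes named here lost the call in at least 3.

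Between BAFF KO and APRIL KO under LPS, 7 of the 82 (8.54%) were called, 4 higher and 3 lower, against 5.54% of all genes (2.48% higher, 3.06% lower). Slc39a14 (−1.81 ± 0.21, adjusted p = 0.004, limma) and Cp (−0.99 ± 0.13, adjusted p = 0.0069, limma) were lower in BAFF KO. So was Slc25a28, or mitoferrin 2, which brings iron into mitochondria, at 7.26 and 6.84 RPKM in BAFF KO and 10.6 and 12.1 RPKM in APRIL KO (−0.62 ± 0.13, adjusted p = 0.033, limma). Ltf (1.05 ± 0.12), Ncoa4 (0.82 ± 0.12) and Spic (0.74 ± 0.16) were higher (adjusted p = 0.0039, 0.0097 and 0.044, limma). Blvrb, a biliverdin reductase acting after heme oxygenase, had 130 and 116 RPKM in BAFF KO and 88.9 and 83.1 RPKM in APRIL KO (0.51 ± 0.091, adjusted p = 0.02, limma). None of the 7 was called in all 6 cases with 1 library left out; without library 17 (BAFF KO) no gene was called, without 18 (BAFF KO) or 21 (APRIL KO) 2 were, and without 20 (APRIL KO) 4 were.

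Between APRIL KO and WT under LPS, 0 of the 82 genes were called by limma, as were 0 by voom on recovered reads, with 16 of the 82 at an unadjusted p under 0.05. Of all genes, 0.211% were called and 15.5% had such an unadjusted p. The difference of the LPS responses was called for 0 of 82 genes in BAFF KO minus WT (17 at an unadjusted p under 0.05 and 5 adjusted calls by voom), where 0.443% of all genes were called and 21.6% had such an unadjusted p. It was called for 0 of 82 in APRIL KO minus WT (1 at an unadjusted p under 0.05 and 0 by voom), where 0.0% of all genes were called and 3.39% had such an unadjusted p.

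Across the 9 libraries, the genes of the whole table whose log2(RPKM + 1) followed each member most closely were ranked by Pearson's r, as a description over libraries that share their groups. For Alas1 these were Gna15 (0.944), Sema4c (0.938) and the metallothionein Mt1 (0.932). Slc40a1 was followed by Smim14 (0.996), Padi4 (0.99) and Psap (0.989), and Hmox1 by Mcee (0.991) and the close paralogs Dynlt1b (0.99) and Dynlt1f (0.987), between which reads may be shared. Hamp was followed by Rgl1 (0.992), U90926 (0.986) and Trip13 (0.984). For Tfrc the nearest were Pigg (0.983), Hpse (0.951) and Fam213a (0.932). The ferritin chains had different neighbours, with Tnfsf13os (0.965), Cdo1 (0.96) and Atp5j2 (0.944) for Fth1 and Atf5 (0.996), Nsmce4a (0.994) and Pygl (0.993) for Ftl1. Slc11a1 was followed by Nt5c2 (0.996), Slc22a4 (0.995) and Hbp1 (0.993), and Slc11a2 by Dlgap4 (0.996), Nupr1 (0.991) and Ms4a6d (0.99).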

How the data were processed

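RNA of the macrophages was read on a NextSeq 550, per the labels' protocols; STAR and the build mm10 are named in the submitters' processing notes, and neither the counter nor the annotation is stated. RPKM values were deposited by the authors in 18 columns. Their steps gave whole reads for 100% of values within 0.01 reads. The total per column was 1649338 to 4078562 reads, with 1 read added to each count above 0. A gene with 0 reads is not listed at 0 but at a floor fixed for that gene, the same in every column. Of the gene IDs, 11084 matched a symbol (GENCODE M21) and 80 did not.

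Both columns of a library were averaged, and limma 3.58.1 (R 4.3.3) was fitted to log2(RPKM + 1) over 6 groups of 9 libraries with 3 residual degrees of freedom, for genes reaching a mean of 1 RPKM or more in some group. The residual degrees of freedom all come from the LPS groups, since a group of 1 library adds none. The spread of unstimulated libraries was therefore not measured and was taken to equal that with LPS, in every SE and p-value. Differences on this scale understate the change of low genes. Intervals are exact Clopper-Pearson at 95%; they and the limit of 3 reads cover counting error only. Nothing says that libraries came from separate mice, so p-values measure only how far these libraries differ among themselves, possibly for technical reasons. In bulk RNA, fewer cells of a type and less RNA per cell cannot be told apart. The members, gene lists and tests were chosen with earlier results of these data known; of the list, up to 5 called genes with the highest and 5 with the lowest log2 difference were named in each tested comparison, and for likeness the 3 genes with the highest r. One gene that this rule names is not reported here. Alternatives covered pseudocount, filter, scaling, columns, voom on recovered reads, a replicate block and each LPS library left out.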

Additional observations from a re-analysis of the deposited data

Results flagged for a closer look

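Alas1 was singled out because its LPS response ran one way in every library of one genotype and the opposite way in every library of the others. The log2 difference on the deposited scale was −0.68 in BAFF KO, 0.99 in APRIL KO and 1.35 in WT. Under median ratio scaling it was −0.22, 1.52 and 1.88, and there Fth1 and Tfrc also differed in direction between BAFF KO and the other genotypes. The difference between the Alas1 responses was not tested, since Alas1 had been chosen with its values known. Each response rests on 1 unstimulated library.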

How the results depend on the processing

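With the 18 columns taken as separate samples, the counts of called genes among the 82 moved to 25 for BAFF KO against WT, 13 for APRIL KO against WT and 19 for BAFF KO against APRIL KO under LPS, and to 20 for the LPS response of BAFF KO minus that of WT; columns of 1 library then count as replicates. For LPS averaged over genotypes the count of 70 moved most with the lower index column alone (57) and with median ratio scaling (60). With the lower index column alone the counts were 2 for BAFF KO against WT and 3 for BAFF KO against APRIL KO. With voom on recovered reads they were 11 for BAFF KO against APRIL KO and 5 for the BAFF KO response minus that of WT. Without 1 replicate they ranged from 2 to 7 for BAFF KO against WT, from 0 to 6 for BAFF KO against APRIL KO and from 65 to 68 for LPS averaged over genotypes; the lone library left is then assumed to vary like the other groups. Quantile normalization reversed Hmox1 in APRIL KO against WT (0.02), and the cause was not tested. It brought Fth1 and Ftl1 in BAFF KO against APRIL KO to 0.00. The method gives genes of equal rank equal values, so 0.00 for genes this abundant can mark an unchanged rank rather than an equal level. Median ratio scaling turned the LPS averages of Fth1 (0.27) and Tfrc (0.03).

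Whether replicate numbers pair the libraries cannot be settled with 2 libraries per LPS group. Same-numbered deviations of LPS groups correlated at −0.18 for BAFF KO and WT and −0.102 for APRIL KO and WT. For BAFF KO and APRIL KO the correlation was 0.12. With a replicate block the counts were 62 for LPS, 9 for BAFF KO against WT, 5 for BAFF KO against APRIL KO and 0 for the other 3 comparisons. Depth limits Hamp, with at most 23 reads in a library, and Slc40a1, with 23 to 932.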
